A study of Mus musculus with 8 samples.

Results

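Metallothioneins are small cysteine-rich proteins that bind zinc, copper and cadmium, and in liver their transcripts respond to metals, glucocorticoids and inflammation. MTF1 is the zinc-sensing transcription factor that binds metal response elements in their promoters. Zinc enters the cytosol through ZIP carriers (Slc39 genes) and leaves it through ZnT carriers (Slc30 genes), and some members of both families carry manganese or iron. The genes described here are the metallothioneins Mt1 and Mt2, the regulator Mtf1, the importers Slc39a14, Slc39a8 and Slc39a4, and the exporters Slc30a1 and Slc30a10. They were picked by name, 8 of the 34745 genes in the table, and all 8 passed the filter on low counts. The choice was made with their levels in these libraries known, so the values below are descriptions.

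Primary hepatocytes came from male wild-type mice given an adeno-associated virus of serotype 8 at 6 weeks of age and were isolated 4 weeks later. The AAV-Trib3 virus expressed mouse Trib3, a pseudokinase that binds AKT, and the AAV-GFP virus expressed green fluorescent protein. Each group had 4 poly(A)-selected libraries, numbered 1 to 4 in the labels. The promoter that drives the vector's insert is not given in the sources used here, nor is whether each library is a separate mouse, so the spread between libraries may be partly technical.

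Total counts were between 11350442 and 15361128 per library. Trib3 had 27.9, 62.6, 67.2 and 20.2 CPM in AAV-Trib3 replicates 1 to 4, against 1.10 to 3.36 CPM in the AAV-GFP libraries. CPM are counts scaled to a common library total with TMM factors, which align the bulk of genes between libraries. AAV-GFP replicate 2 stood apart, with 32.0% of its counts on mitochondrial transcripts against 14.9% to 18.5% in the other libraries. The 5 hepatocyte markers in the table summed to between 66777 and 106920 CPM in AAV-Trib3 libraries and between 66083 and 135349 CPM in AAV-GFP libraries. Lymphocyte markers summed to at most 0.671 CPM and neutrophil markers to at most 2.56 CPM in any library. Markers of other cell types summed to higher levels, which also varied between libraries. Endothelial markers summed to between 13.6 and 61.8 CPM, stellate and fibroblast markers to between 2.96 and 25.9 CPM, and biliary markers to between 7.11 and 28.1 CPM.

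Mt1 and Mt2 varied widely between libraries of the same group and moved together, while the importers, exporters and Mtf1 spanned between 1.61-fold and 2.30-fold in CPM over the 8 libraries. Mt1 (ENSMUSG00000031765) lies on the plus strand of mm10 chromosome 8 from 94179089 to 94180325. Mt2 (ENSMUSG00000031762) lies upstream on the same strand from 94172618 to 94173567, so 5521 bases separate them. The longest exact stretch that their longest annotated transcripts share is 20 bases. An antisense gene is annotated across part of Mt2, and without strand information its reads cannot be told apart from those of Mt2.

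The promoters of both metallothionein genes, from 250 bases before to 50 after the RefSeq start (GRCm38.p6, the build also called mm10), are shown because both carry several copies of the core letters of the element that MTF1 binds. Slc30a1, a gene known to respond to zinc through MTF1, is given for comparison. Capitals mark the metal response element core, TGCACNC or TGCGCNC, on either strand.
Mt1, chr8:94178839-94179138, plus strand: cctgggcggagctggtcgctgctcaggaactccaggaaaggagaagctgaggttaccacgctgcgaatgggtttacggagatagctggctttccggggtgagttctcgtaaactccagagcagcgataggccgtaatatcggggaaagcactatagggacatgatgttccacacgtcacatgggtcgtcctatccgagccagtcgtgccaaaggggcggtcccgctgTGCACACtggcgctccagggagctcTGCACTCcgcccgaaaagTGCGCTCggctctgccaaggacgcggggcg
Mt2, chr8:94172368-94172667, plus strand: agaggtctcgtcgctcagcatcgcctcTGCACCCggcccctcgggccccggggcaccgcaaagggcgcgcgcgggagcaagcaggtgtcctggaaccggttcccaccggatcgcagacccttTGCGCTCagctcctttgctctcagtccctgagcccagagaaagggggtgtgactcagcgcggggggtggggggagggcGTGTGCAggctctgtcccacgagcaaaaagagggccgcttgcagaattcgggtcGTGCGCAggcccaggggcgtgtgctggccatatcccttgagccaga
Slc30a1, chr1:191906531-191906830, plus strand: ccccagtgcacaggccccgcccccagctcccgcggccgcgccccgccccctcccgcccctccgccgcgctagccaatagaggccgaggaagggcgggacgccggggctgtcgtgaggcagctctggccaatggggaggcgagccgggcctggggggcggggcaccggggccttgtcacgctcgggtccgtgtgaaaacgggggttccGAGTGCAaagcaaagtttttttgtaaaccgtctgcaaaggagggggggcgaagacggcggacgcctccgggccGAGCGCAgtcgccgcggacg
Mt1 held 3 matches and Mt2 held 4, none of which overlapped. In Mt1 they lay between positions −23 and 27 from the start, at the downstream end of the window. Bases beyond the windows were not searched, so these counts do not cover whole promoters and do not rank the genes. At least 3 matches were found in 1.97% of the 32851 RefSeq promoter windows of that length, and at least 4 in 0.517%. Slc30a1 held 2 matches, a number reached by 7.11% of windows. Slc30a10 held 3 matches, a pair of which overlap on opposite strands. Of the 2 windows of Slc39a8, 1 held a single match, and the window of Mtf1 held none; at least 1 match was found in 25.7% of windows. Promoters of 6 of the 8 genes were matched by symbol; Slc39a14 and Slc39a4 were not matched. The antioxidant response core TGACNNNGC, searched on both strands, had 1 match each in Mt2, Slc30a1 and 1 window of Slc39a8, against at least 1 in 12.4% of windows. A core missing from a window, as in Mt1, may still lie outside it. The STAT motif TTCNNNGAA had no match in any of these windows and at least 1 in 8.3% of windows.

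Mt1 had 354, 55.3, 163 and 388 CPM in AAV-Trib3 replicates 1 to 4, against 169, 14.1, 344 and 54.6 CPM in AAV-GFP replicates 1 to 4. Libraries of both groups were spread over the same range, with the lowest level in AAV-GFP replicate 2 and the highest in AAV-Trib3 replicate 4. The mean was 240 ± 158 CPM in AAV-Trib3 hepatocytes, against 146 ± 148 CPM in AAV-GFP hepatocytes (SD, n = 4 each).

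Mt2 had 353, 34.3, 177 and 262 CPM in AAV-Trib3 replicates 1 to 4, against 192, 3.72, 200.3 and 58.4 CPM in AAV-GFP replicates 1 to 4. The order of libraries was close to that of Mt1: in both genes AAV-Trib3 replicates 1 and 4 were the top pair, AAV-GFP replicate 3 came next and AAV-GFP replicate 2 was last. The mean was 207 ± 136 CPM in AAV-Trib3 hepatocytes, against 114 ± 98 CPM in AAV-GFP hepatocytes (SD, n = 4 each). AAV-Trib3 replicates 1 and 4, where Mt1 and Mt2 were highest in that group, had 27.9 and 20.2 CPM of Trib3. Replicates 2 and 3 of that group had 62.6 and 67.2 CPM of Trib3. A link between Trib3 and metallothionein levels was not tested.

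Between the lowest and the highest library, Mt1 spanned 27.6-fold and Mt2 95.03-fold in CPM. Within AAV-Trib3 alone the span was 7.02-fold for Mt1 and 10.3-fold for Mt2, and within AAV-GFP alone it was 24.5-fold and 53.9-fold. Among the 9807 genes with a mean log2 CPM of at least 1, 35 had a wider range of log2 CPM over the 8 libraries than Mt1, and 7 had a wider one than Mt2. The median gene ranged over 0.84 on that scale, against 4.77 for Mt1 and 6.52 for Mt2. These spans rest in large part on AAV-GFP replicate 2. Without it, an alternative chosen after seeing the data, the span was 7.11-fold for Mt1 and 10.3-fold for Mt2, and within AAV-GFP it was 6.30-fold and 3.43-fold. Of 9785 genes, 192 then had a wider range than Mt1 (2.83) and 100 a wider one than Mt2 (3.36), with a median of 0.70. AAV-GFP replicate 2 had 37 Mt2 reads, or 2.60 CPM before TMM scaling whose 95% interval (exact, Clopper-Pearson) ran from 1.83 to 3.58. AAV-Trib3 replicate 1 had 5797 reads, or 377 CPM (interval 368 to 387). These intervals cover counting error only.

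**Figure D1:**
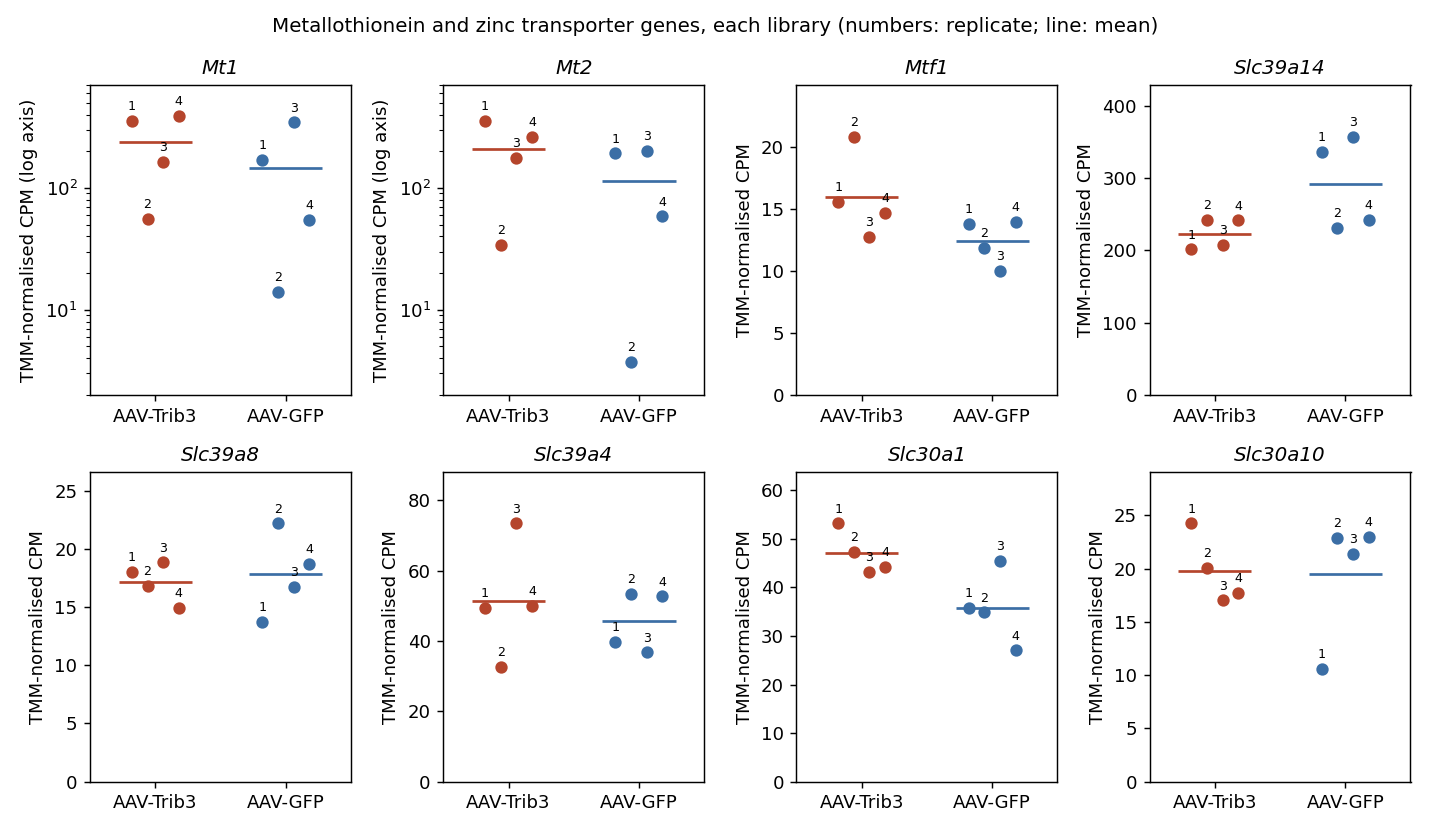
TMM-normalised CPM of the 8 genes in each library, AAV-Trib3 in red and AAV-GFP in blue, with replicate numbers beside the points and a line at the group mean. Mt1 and Mt2 are on log axes and span 27.6-fold and 95.03-fold over the libraries; the other genes are on linear axes from 0, and in none of the 8 are the groups separate.

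Scaled for gene length, both metallothioneins lay above the other 6 transcripts in 7 of 8 libraries. In AAV-GFP replicate 2 Mt1 (18.2 FPKM) was still the highest, while Mt2 (4.67 FPKM) lay below Slc39a4 (16.8) and Slc39a14 (11.02). In deposited FPKM, Mt1 averaged 465 ± 320 with AAV-Trib3 and 286 ± 293 with AAV-GFP, and Mt2 averaged 388 ± 265 and 218 ± 186 (SD, n = 4 each). By FPKM, Mt1 ranked between 71 and 336 among all genes in the AAV-Trib3 libraries and between 83 and 1044 in the AAV-GFP libraries. Mt2 ranked between 81 and 547 with AAV-Trib3, and between 124 and 2874 with AAV-GFP.

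The ratio of Mt1 to Mt2 FPKM was 1.03, 1.66, 0.947 and 1.52 in AAV-Trib3 replicates 1 to 4, against 0.910, 3.90, 1.77 and 0.963 in AAV-GFP replicates 1 to 4. It was highest in the library where both transcripts were lowest. Mt1 exceeded Mt2 in FPKM in 5 of 8 libraries, so their order was not fixed. The brain metallothionein Mt3 had 2 reads in AAV-Trib3 replicate 3 and 0 in the other libraries, and the epithelial Mt4 had 0 reads in all 8.

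In edgeR's quasi-likelihood test across 11036 genes, none of the 8 genes passed a Benjamini-Hochberg adjusted p of 0.05, and neither did any other gene (0 called, 0%). Even Trib3, which the virus expressed, was not called, with a log2 difference of 4.17 ± 0.47 (SE) and an edgeR adjusted p of 0.0675. A gene that edgeR did not call may therefore still differ. At an unadjusted p under 0.05 that test listed 346 genes, 3.14% of those tested (1.36% higher and 1.78% lower with AAV-Trib3). Of the 8 genes only Slc30a1 was among them, on the higher side. DESeq2 called 7 of 9954 genes (0.0703%), none of them among the 8, and limma-voom called 0. Trib3 was among those 7, with a DESeq2 adjusted p of 2.2e-17. The log2 difference, AAV-Trib3 over AAV-GFP, was 0.72 ± 0.86 (SE) for Mt1 and 0.86 ± 0.95 for Mt2, both with an edgeR adjusted p of 1.00. The 95% interval (normal approximation) ran from −0.96 to 2.40 for Mt1 and from −1.002 to 2.73 for Mt2, so neither an increase nor a decrease could be resolved. With 1 library left out the difference was between 0.34 and 1.60 for Mt1, and between 0.47 and 1.29 for Mt2. In both genes it was lowest without AAV-GFP replicate 2 and highest without AAV-GFP replicate 3. Limma-voom gave larger differences, 1.19 for Mt1 and 1.503 for Mt2, each with an adjusted p of 0.999.

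The genes whose pattern over the 8 libraries lay closest to each metallothionein were sought among the genes with a mean log2 CPM of at least 1. Likeness was the root mean square difference of log2 CPM after each gene was centred on its mean. Out of 9806 other genes, Mt2 was the closest to Mt1 and Mt1 the closest to Mt2, with a difference of 0.66. Next to Mt1 came the galactosyltransferase gene B3galt1 (0.68) and the lysine methyltransferase gene Setd7 (0.74). Next to Mt2 came the peptide transporter gene Slc15a2 (1.04) and Setd7 (1.07).

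B3galt1 had 50.2, 5.20, 27.8 and 68.7 CPM in AAV-Trib3 replicates 1 to 4, against 52.3, 6.13, 80.1 and 6.22 CPM in AAV-GFP replicates 1 to 4. Like Mt1 it was low in AAV-Trib3 replicate 2 and in AAV-GFP replicates 2 and 4. Setd7 had 11.6, 5.64, 13.0 and 14.3 CPM in AAV-Trib3 replicates 1 to 4, against 5.36, 1.00, 10.3 and 5.37 CPM in AAV-GFP replicates 1 to 4. Slc15a2 was low throughout, between 2.57 and 5.06 CPM in AAV-Trib3 libraries and between 0 and 3.25 CPM in AAV-GFP libraries. Both had their lowest level in AAV-GFP replicate 2, the library with the most mitochondrial counts. Without that library, out of 9784 genes, Mt2 was again the closest to Mt1 (0.39) and B3galt1 was at rank 5, while Setd7 was at rank 102. Mt1 was then at rank 3 for Mt2, behind Tpm3 and Slc1a5 (0.34 each), with Setd7 at rank 128 and Slc15a2 at rank 2772. For Mt1, Slc1a5 was at rank 2 (0.43).

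**Figure D2:**
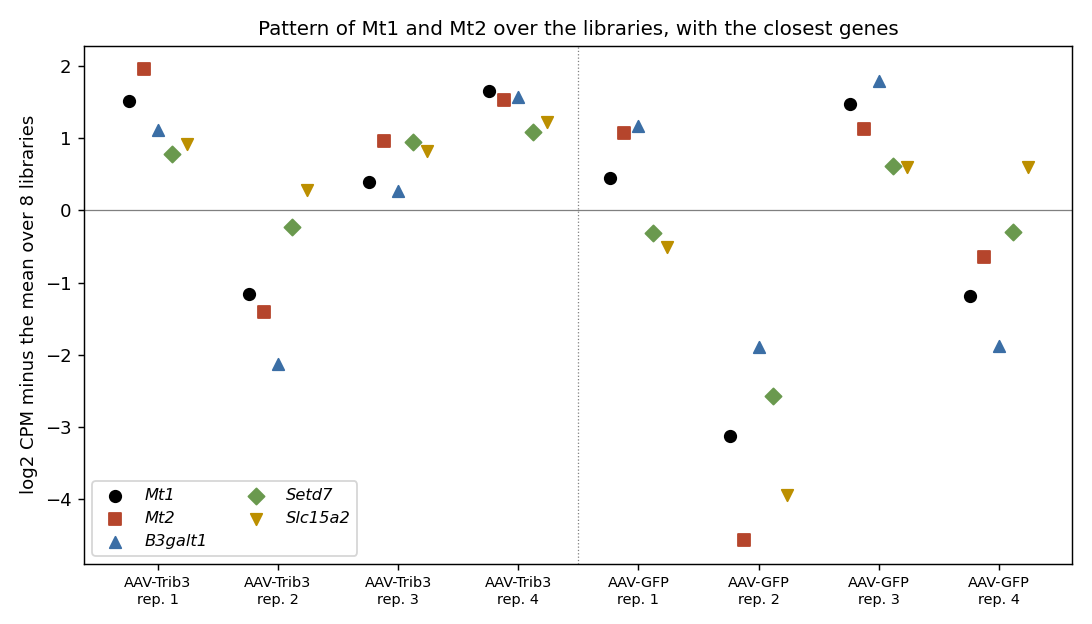
Log2 CPM minus the mean over 8 libraries (vertical axis) for Mt1, Mt2 and the closest genes B3galt1, Setd7 and Slc15a2, with the AAV-Trib3 libraries left of the dotted line and AAV-GFP right of it. All but B3galt1 are lowest in AAV-GFP replicate 2, and B3galt1 is lowest in AAV-Trib3 replicate 2.

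Transcripts of acute phase proteins, secreted by the inflamed liver, differed between the same libraries. The 16 genes of that list summed to 46541, 21736, 20069 and 47343 CPM in AAV-Trib3 replicates 1 to 4, against 20373, 28488, 30526 and 19881 CPM in AAV-GFP replicates 1 to 4. Mt1 and Mt2 together had 707, 89.6, 340 and 651 CPM in AAV-Trib3 replicates 1 to 4, against 361, 17.8, 545 and 113 CPM in AAV-GFP replicates 1 to 4. Both sums were highest in AAV-Trib3 replicates 1 and 4, with AAV-GFP replicate 3 next. Elsewhere their orders differed. AAV-GFP replicate 2 had the lowest metallothionein sum and the fourth highest acute phase sum. AAV-Trib3 replicate 3 had more metallothionein than AAV-Trib3 replicate 2 and less acute phase transcript, and AAV-GFP replicate 1 had the fourth highest metallothionein sum but the sixth highest acute phase sum.

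The 8 Kupffer cell and macrophage markers summed to 78.7, 7.18, 19.0 and 48.9 CPM in AAV-Trib3 replicates 1 to 4, against 9.22, 61.1, 6.93 and 57.3 CPM in AAV-GFP replicates 1 to 4. None of the 8 was at 0 in all libraries, and 1 was at 0 in AAV-Trib3 replicate 2. Over the AAV-Trib3 libraries they had the same order as the metallothionein sum, and over the AAV-GFP libraries the opposite order. The part of these cells, of acute phase status and of the mitochondrial share in the metallothionein levels was not tested. In such bulk libraries, fewer cells of a type and less RNA per cell cannot be told apart.

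**Figure D3:**
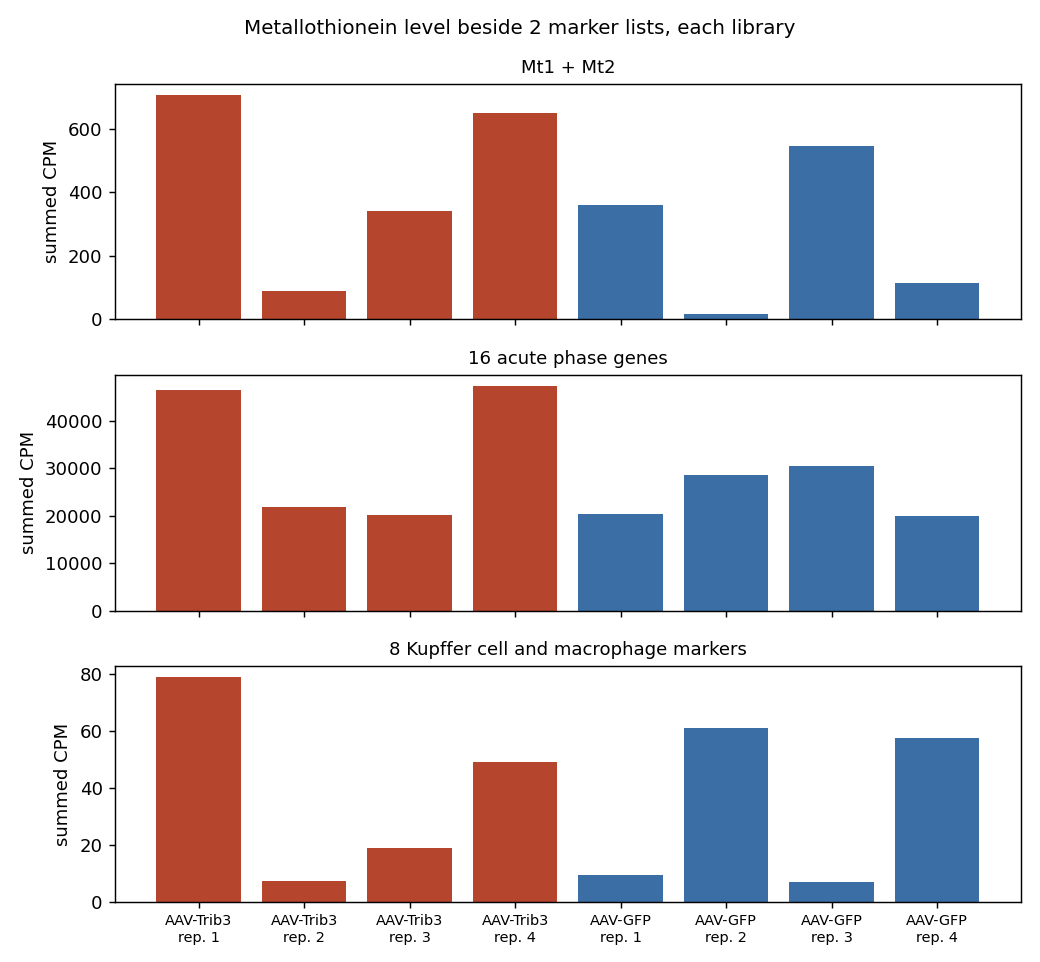
Summed CPM of Mt1 and Mt2 (top), of 16 acute phase genes (middle) and of 8 Kupffer cell and macrophage markers (bottom) in each library, AAV-Trib3 in red and AAV-GFP in blue. AAV-Trib3 replicates 1 and 4 are highest in the upper and middle panels, and AAV-GFP replicate 2 is lowest in the top panel alone.

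Mtf1 (ENSMUSG00000028890, chromosome 4, 124802104 to 124849800, plus strand) encodes the zinc sensor itself. It had 15.5, 20.8, 12.7 and 14.7 CPM in AAV-Trib3 replicates 1 to 4, against 13.7, 11.9, 9.97 and 14.0 CPM in AAV-GFP replicates 1 to 4. Replicates 1, 2 and 4 of AAV-Trib3 lay above every AAV-GFP library, and AAV-Trib3 replicate 3 lay among them. The log2 difference was 0.36 ± 0.18 (SE; edgeR adjusted p = 1.00). With 1 library left out it was between 0.20 (without AAV-Trib3 replicate 2) and 0.46 (without AAV-Trib3 replicate 3). Mtf1 was highest in AAV-Trib3 replicate 2, where Mt1 and Mt2 were lowest within that group. A protein-coding gene on the opposite strand, 1110065P20Rik, overlaps the end of Mtf1.

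Among the importers, Slc39a14 (ENSMUSG00000022094, chromosome 14, 70303469 to 70351425, minus strand) encodes ZIP14, a carrier of zinc, iron and manganese at the hepatocyte membrane that is known to be induced in inflamed liver. It had 201, 242, 208 and 241 CPM in AAV-Trib3 replicates 1 to 4, against 336, 231, 357 and 242 CPM in AAV-GFP replicates 1 to 4. AAV-GFP replicates 1 and 3 lay above all AAV-Trib3 libraries, while AAV-GFP replicates 2 and 4 lay within their range. The log2 difference was −0.39 ± 0.18 (SE; edgeR adjusted p = 1.00), and it kept its sign when any 1 library was left out, between −0.48 and −0.27. The libraries with the most acute phase transcripts, AAV-Trib3 replicates 1 and 4, had 201 and 241 CPM of Slc39a14. AAV-GFP replicate 3, with the most acute phase transcripts of its group, had 357 CPM, the highest of the 8 libraries. A link between acute phase transcripts and Slc39a14 was not tested.

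Slc39a4 (ENSMUSG00000063354, chromosome 15, 76612385 to 76616852, minus strand) encodes ZIP4, the carrier of dietary zinc uptake in the intestine. It had 49.3, 32.5, 73.4 and 50.04 CPM in AAV-Trib3 replicates 1 to 4, against 39.8, 53.3, 36.8 and 52.7 CPM in AAV-GFP replicates 1 to 4. The AAV-Trib3 libraries held both the highest and the lowest value, so the AAV-GFP range fell inside theirs. Its log2 difference of 0.17 ± 0.24 (SE) was −0.05 without AAV-Trib3 replicate 3, the highest library.

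Slc39a8 (ENSMUSG00000053897, chromosome 3, 135825279 to 135888572, plus strand) encodes ZIP8, which carries zinc and manganese. It had 18.03, 16.8, 18.8 and 14.9 CPM in AAV-Trib3 replicates 1 to 4, against 13.7, 22.2, 16.8 and 18.7 CPM in AAV-GFP replicates 1 to 4. The AAV-Trib3 range lay inside the AAV-GFP range. The log2 difference was −0.06 ± 0.16 (SE), the narrowest error of the 8, and its sign turned with scaling by library size alone (0.016).

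Slc30a1 (ENSMUSG00000037434, chromosome 1, 191906767 to 191913247, plus strand) encodes ZnT1, the zinc exporter of the plasma membrane. It had 53.2, 47.4, 43.2 and 44.2 CPM in AAV-Trib3 replicates 1 to 4, against 35.8, 34.8, 45.4 and 27.0 CPM in AAV-GFP replicates 1 to 4. All AAV-Trib3 libraries lay above 3 of the 4 AAV-GFP libraries, and AAV-GFP replicate 3 lay among them. The log2 difference was 0.39 ± 0.17 (SE), with an unadjusted p of 0.0392 and an edgeR adjusted p of 1.00. Within AAV-Trib3 it spanned 1.23-fold, against 7.02-fold for Mt1, and both Slc30a1 and the summed metallothioneins were highest in replicate 1. Replicate 2, the lowest in that sum, was the next highest in Slc30a1. Within AAV-GFP, Slc30a1 and that sum were highest in replicate 3 and next in replicate 1, with the lower pair in opposite order.

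Slc30a10 (ENSMUSG00000026614, chromosome 1, 185454848 to 185468762, plus strand) encodes a carrier known mainly for exporting manganese. It had 24.2, 20.1, 17.0 and 17.7 CPM in AAV-Trib3 replicates 1 to 4, against 10.6, 22.9, 21.4 and 23.0 CPM in AAV-GFP replicates 1 to 4. AAV-GFP replicate 1 lay apart below the rest, and the other AAV-GFP libraries were within the AAV-Trib3 range. The log2 difference was 0.02 ± 0.24 (SE), and leaving out replicate 1 of AAV-Trib3 or of AAV-GFP turned it to −0.09 or −0.18.

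The groups overlapped in all 8 genes, while they were separate in 2.29% of the genes tested. The log2 difference was positive in 6 of the 8, against 47.9% of all genes tested; 2 of those 6, Slc39a4 and Slc30a10, changed sign when a single library was left out.

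By mean FPKM over the 8 libraries, the order was Mt1 (376), Mt2 (303), Slc39a4 (21.8), Slc39a14 (17.8), Slc30a1 (7.06), Slc30a10 (3.38), Slc39a8 (1.27) and Mtf1 (0.961). Mt2 exceeded Slc39a4 in 7 of 8 libraries, the exception being AAV-GFP replicate 2. Slc39a4 exceeded Slc39a14 in 5 of 8, so these importers did not differ beyond their spread. The ranges of Slc39a14 and Slc30a1 over the libraries did not meet, nor did those of Slc30a10 and Slc39a8. Mtf1 lay below Slc39a8 in 7 of 8 libraries, with overlapping ranges.

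Of the 14 ZIP genes, 11 were tested, and by FPKM the most abundant was Slc39a1, a plasma membrane importer, at 23.0 on average (range 18.4 to 28.6). Slc39a9 averaged 10.4, Slc39a7, which releases zinc from the endoplasmic reticulum, 5.72, and Slc39a11 5.03. Slc39a8 and the 4 other tested importers averaged between 0.491 and 1.27 FPKM. Slc39a5 and Slc39a2 had 51 and 74 reads over all libraries and Slc39a12 had 0, and none of these was tested. Of the 10 ZnT genes, 7 were tested. Slc30a5, which loads zinc into the secretory pathway, averaged 14.6 FPKM, above the 7.06 of Slc30a1, and Slc30a6, its partner in that complex, averaged 3.93. The pancreatic islet exporter Slc30a8 had 9 reads in all and Slc30a2 had 0.

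**Figure D4:**
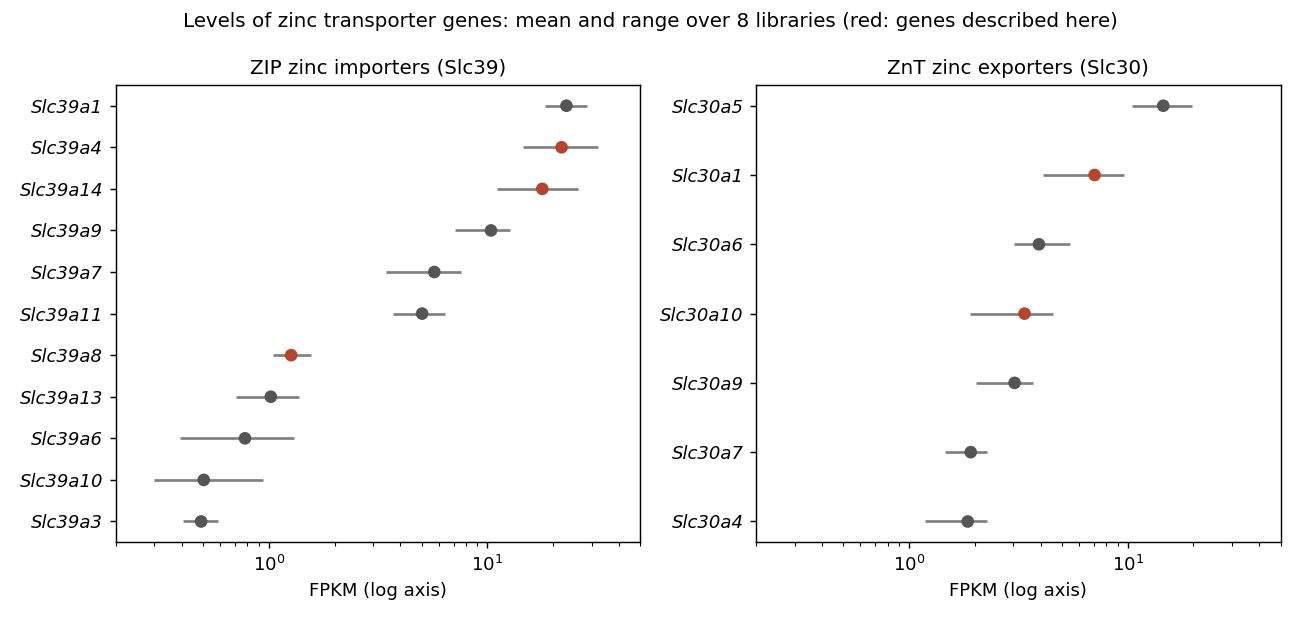
Deposited FPKM on a log axis for the tested ZIP (left) and ZnT (right) genes, with points at the mean and lines for the range over 8 libraries. Slc39a1, Slc39a4 and Slc39a14 lie highest among the importers with overlapping ranges, and Slc30a5 lies highest among the exporters.

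No ZIP or ZnT gene was called in either direction (0 higher and 0 lower, as over all genes). Of the ZIP genes 3 were higher and 8 lower with AAV-Trib3, with a median log2 difference of −0.03 against −0.01 over all genes. The split turned to 8 higher and 3 lower with library size alone as the scaling. Of the ZnT genes 4 were higher and 3 lower (median 0.02), and with library size alone all 7 were higher. Beside the members, log2 differences were 0.12 ± 0.20 for Slc39a11, −0.08 ± 0.15 for Slc39a9, −0.17 ± 0.39 for Slc39a6 and −0.11 ± 0.27 for Slc39a3. Those of the exporters were 0.14 ± 0.19 for Slc30a5, −0.05 ± 0.12 for Slc30a7, 0.09 ± 0.25 for Slc30a6 and −0.02 ± 0.12 for Slc30a9 (SE).

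**Figure D5:**
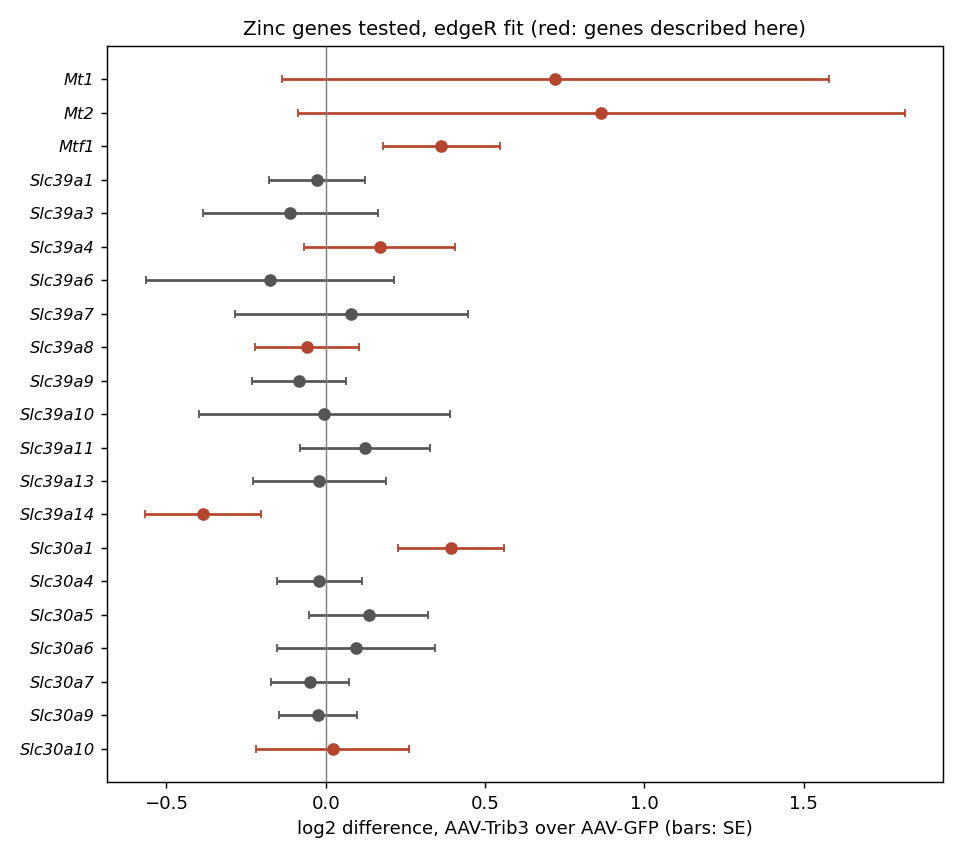
Log2 difference, AAV-Trib3 over AAV-GFP, with its SE for Mt1, Mt2, Mtf1 and the tested Slc39 and Slc30 genes; the 8 genes described here are in red. The error bars of Mt1 and Mt2 are the widest, at 0.86 and 0.95, and the transporters lie between −0.39 for Slc39a14 and 0.39 for Slc30a1.

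Other genes linked to MTF1, copper and glucocorticoids also held no call (0 of each list in either direction). Of the 4 further MTF1 targets tested, the stress gene Ndrg1 had a log2 difference of −0.98 ± 0.67, Csrp1 0.40 ± 0.62, the glutathione synthesis gene Gclc −0.16 ± 0.28 and the importer Slc39a10 −0.01 ± 0.39 (SE). The 12 copper-handling genes, 6 higher and 6 lower, had a median of 0.00. Among them Slc31a2 had 0.32 ± 0.22, Commd1 0.25 ± 0.19, the plasma ferroxidase Cp 0.27 ± 0.21 and the copper chaperone Ccs −0.09 ± 0.12. Of the 8 glucocorticoid-induced genes 5 were higher and 3 lower (median 0.19), among them Per1 (−0.35 ± 0.21), Zbtb16 (0.48 ± 0.30), the tyrosine aminotransferase Tat (0.41 ± 0.38) and Pck1 (0.33 ± 0.35).

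The 8 glucocorticoid-induced genes summed to 4936, 7280, 11052 and 3690 CPM in AAV-Trib3 replicates 1 to 4, against 6031, 3582, 4947 and 6540 CPM in AAV-GFP replicates 1 to 4. Most of that sum was Pck1 and Tat, which averaged 3221 and 2439 CPM over the 8 libraries. Within AAV-Trib3 it was lowest in replicates 1 and 4, where Mt1 and Mt2 were highest, and within AAV-GFP it was lowest in replicate 2, where Mt1 and Mt2 were also lowest. Of the 6 genes of IL6 and STAT3 signalling 2 were higher and 4 lower (median −0.01), with 0.24 ± 0.13 for the kinase Jak1, 0.18 ± 0.19 for the receptor Il6ra, −0.11 ± 0.19 for Il6st and −0.10 ± 0.29 for the feedback inhibitor Socs3. Of the 16 acute phase genes 13 were higher and 3 lower, with a median of 0.56. Their smallest p-values belonged to the serum amyloid genes Saa3 (2.50 ± 0.86) and Saa2 (4.34 ± 1.57), the glycoprotein gene Orm2 (3.47 ± 1.26) and the haem binder Hpx (0.98 ± 0.38), with an edgeR adjusted p of 1.00 each. The groups overlapped in each of these genes. Saa2 ran from 16.6 to 2414 CPM in AAV-Trib3 libraries, against 18.7 to 149 CPM in AAV-GFP libraries. Orm2 ran from 12.5 to 686 CPM, against 9.60 to 63.7 CPM. Saa1 and Saa2 are near-identical copies, as are Orm genes, which makes their single counts uncertain.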

How the data were processed

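Per the file headers, the authors' table holds, for each of the 8 libraries, gene counts without normalisation and FPKM (counts scaled by gene length and library total), with 34745 genes. The submitters' processing notes name Trimmomatic and mm10; aligner, counting program, annotation release and strand setting were not named there, and the labels' protocols describe oligo(dT) selection without molecular identifiers. The columns were matched to samples by the code in each title.

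Deposited counts were filtered with edgeR's filterByExpr (11036 genes kept), scaled by TMM factors (0.699 to 1.15) and tested with glmQLFit (robust) and glmQLFTest for AAV-Trib3 against AAV-GFP, without covariates, Benjamini-Hochberg adjusted over all genes. SEs are the log2 difference divided by the square root of F. Deposited FPKM served only to compare levels between genes. Libraries of a group differed by 15.6 to 189 chi-square per degree of freedom, and all were kept as separate libraries in the main fit. The largest values, 159 to 189, were those of pairs with AAV-GFP replicate 2. Alternatives were other scalings and filters, DESeq2, limma-voom, non-robust estimation, a replicate block and each library left out. Named genes were the 8 members, Trib3, up to 4 genes per list with the smallest p, and the 3 closest patterns for members whose log2 CPM (prior count 2) ranged over at least 2. Members and lists were chosen with earlier results of these data known. The code of the test was run on simulated counts with an equal dispersion in every gene. That run does not show what the test can detect in genes as variable as Mt1 and Mt2. Promoters are from RefSeq (GRCm38.p6). Software was R 4.3.3, edgeR 4.0.16, limma 3.58.1, DESeq2 1.42.0 and Python 3.11.15.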

Additional observations from a re-analysis of the deposited data

Results flagged for a closer look

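Slc30a10 stood at 10.6 CPM in AAV-GFP replicate 1, against 21.4 to 23.0 CPM in the other AAV-GFP libraries. The gap to its neighbour was 0.869 of the range of the group, above Dixon's 95% critical value for 4 samples. Of 20 groups of values compared in this way 1 passed, and chance passes about 1 in 20. The library rested on 126 reads of Slc30a10, with an exact 95% interval of 9.25 to 13.2 CPM before TMM scaling that covers counting error only.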

How the results depend on the processing

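In none of the alternatives did any of the 8 genes pass an adjusted p of 0.05, and the lowest over all of them was 0.88, for Slc30a1 with 1 library left out. DESeq2 called 7 genes in all where edgeR called 0, and edgeR called between 0 and 3 with 1 library left out; the cause was not tested. Directions turned in 6 cases, all of them small differences: Slc39a8 with library size alone (0.016), without AAV-Trib3 replicate 4 (0.0035) and without AAV-GFP replicate 2 (0.067, the highest with 1 library left out; the lowest was −0.16), Slc39a4 without AAV-Trib3 replicate 3 (−0.054, the lowest; the highest was 0.33), and Slc30a10 without AAV-Trib3 replicate 1 (−0.092) and without AAV-GFP replicate 1 (−0.18, the lowest; the highest was 0.11). The other 122 log2 differences kept direction and side of the threshold. With deposited FPKM the log2 ratio of group means stayed within the spread between replicates for all 8 genes, though that of Slc39a8 was 0.016 in place of −0.059. Same-numbered libraries of the 2 groups did not deviate together (correlations of −0.27 to −0.03). That gave no sign of pairing by number, but with 4 libraries per group it cannot exclude it. With the replicate number as a block 0 genes were called, and the log2 differences of Mt1 and Mt2 were 1.25 and 1.47, each with an adjusted p of 1. Their SEs were 0.64 and 0.55, and their unadjusted edgeR p-values were 0.093 and 0.033. In that fit 225 of 11036 genes had an unadjusted p under 0.05. Limma-voom gave 1.19 and 1.503 for Mt1 and Mt2 (adjusted p = 0.999). The 4 libraries per group and the spread of the metallothioneins limit what these differences can show.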
